A study of Mus musculus with 57 samples.

Results

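The comparison is between nucleus accumbens (NAc) and prefrontal cortex (PFC), 2 regions of the mesocorticolimbic dopamine system, in mice of the same drinking experiment. All arrays whose titles name either region were taken, 19 for NAc and 19 for PFC, which makes 38 of the 57 arrays of the series; the other 19 are from ventral midbrain. The mice were young males of the inbred strain C57Bl/6NCrl. Each had the choice between a bottle of 10% (w/v) ethanol and a bottle of water in 18-hour sessions, in 4 rounds of 4 daily sessions with 4 days of abstinence after each, or 16 sessions in all. Tissue was taken 6 days after the last session. Every mouse of both groups had drunk by choice from this schedule, so no group was ethanol-naive and the levels are those of animals in abstinence. The paper reports that intake differed widely between mice, from nearly none to very high. RNA of each mouse and region was hybridised to 1 Affymetrix oligonucleotide array for mouse genes. The replicate numbers in the titles run from 1 to 20, NAc lacks number 10 and PFC lacks number 6, and 18 numbers occur in both regions. A number is taken here to mark a mouse, which the labels do not state. The 18 mice named below are these shared numbers, so a difference given within a mouse rests on this reading.

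The NAc lies in the ventral striatum, and most of its neurons are GABAergic medium spiny projection neurons. They divide into cells that carry the dopamine D1 receptor together with substance P and dynorphin, and cells that carry the D2 receptor together with enkephalin. The PFC is a layered cortex, in which glutamatergic pyramidal neurons project to the NAc and to many other targets, and GABAergic interneurons of several classes control them. Striatal projection neurons and cortical pyramidal neurons arise from different parts of the embryonic telencephalon under different sets of transcription factors.

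Levels are RMA signals on the log2 scale after quantile normalization of the 38 arrays together. A difference is NAc minus PFC, in log2 units, given with its standard error, and adjusted p-values are those of limma over all tested probesets after Benjamini-Hochberg adjustment. A gene was called higher in a region at adjusted p under 0.01 and a difference of at least 1, which is 2-fold. Each gene is represented by 1 probeset, the brightest over the 38 arrays. The arrays measure dissected tissue, in which fewer cells of a type and less RNA per cell cannot be told apart.

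Arrays of one region were alike: over all tested probesets r lay between 0.969 and 0.997 within NAc and between 0.982 and 0.996 within PFC, against 0.913 to 0.959 between the regions. These correlations run across probesets, which are not independent replicates. The NAc arrays of replicates 1, 6 and 19 lay apart from the others on the first principal component of that region, and PFC replicate 3 did so in PFC. PFC replicate 20 is given as ventral tegmental area in another field of its labels. On that array the mean level of 30 cortical excitatory neuron genes was 8.24. The PFC arrays ranged from 8.17 to 8.39, with replicates 3 and 17 at the ends. The level in ventral midbrain was not compared, so this does not decide between the labels. The array was kept as PFC by its title. Without it 1337 probesets were called, without the 3 NAc arrays 1267 and without PFC replicate 3 1326, against 1333 with all arrays.

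Of 18303 probesets tested, 1333 were called (7.28%), 576 of them higher in NAc and 757 higher in PFC. At the level of genes, 338 of 10578 were higher in NAc (3.20%) and 322 were higher in PFC (3.04%). Counts for gene lists below stand against these 2 shares, except where an unadjusted p or the deposited values are named. The levels of the 2 regions did not overlap on any array for 2533 genes (23.9%), among them 325 of the 338 genes higher in NAc and 284 of the 322 higher in PFC. A difference of at least 2 was found for 56 genes higher in NAc and 42 higher in PFC, and a difference of at least 3 for 10 and 5. Without the minimum difference, most of what was tested passed the adjusted p under 0.01. Of 18303 probesets, 7215 passed toward NAc and 6628 toward PFC, and of 10578 genes 8024 passed in either direction. The adjusted p alone thus separated few genes from the rest, and the calls rest mainly on the minimum difference. The direction split rests on the joint normalization: in the deposited values the median of all probesets was already 0.69 higher in NAc, or 0.72 over genes. Without normalization 4437 of 4616 called probesets (96.1%) were higher in NAc, against 43.2% with it. Of all 18303 probesets, 4437 were thus called toward NAc in the deposited values and 179 toward PFC. List counts given below for the deposited values stand beside these numbers, not beside 3.20% and 3.04%.

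**Figure D1:**
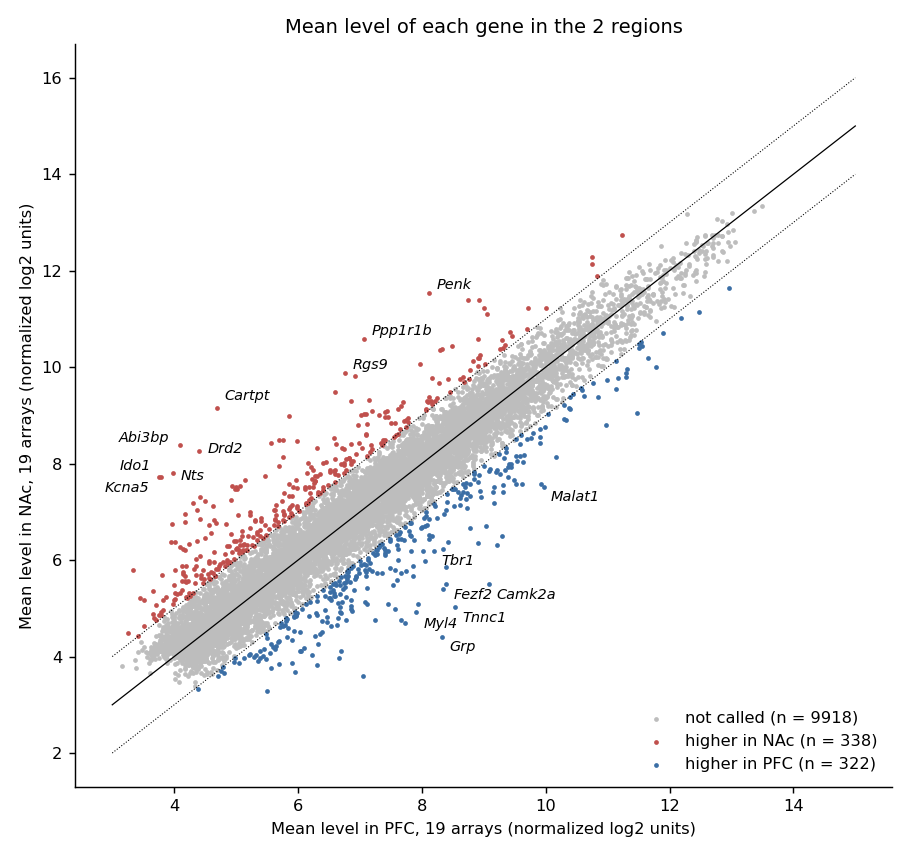
Mean normalized log2 level of each of 10578 genes in PFC (horizontal axis) and NAc (vertical axis), 19 arrays each; the solid line marks equal levels, the dotted lines a difference of 1, and colours the 338 genes called higher in NAc and the 322 called higher in PFC. Cartpt, Drd2 and Penk stand far above the line, and Grp, Camk2a and Tnnc1 far below it.

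The account of the neurons opens with the 4 genes taken as markers of the comparison, Cartpt, Drd2, Kcna5 and Grp. Cartpt encodes the precursor of the CART peptides, which in the striatum act on the response to dopamine and to psychostimulants. Its level ran from 8.60 over a median of 9.20 to 9.92 in NAc and from 4.39 over 4.67 to 5.06 in PFC, so the lowest NAc array lay far above the highest PFC array. The difference was 4.46 ± 0.08 (adjusted p = 5.55e-38 by limma), the greatest of all genes called higher in NAc, and within the 18 mice with both arrays it ranged from 3.80 to 5.16. Drd2, the dopamine D2 receptor, lay between 7.95 and 8.74 in NAc (median 8.25) and between 4.20 and 4.56 in PFC (median 4.39). All NAc arrays were above all PFC arrays, and the difference was 3.86 ± 0.06 (adjusted p = 6.95e-40). Kcna5, a voltage-gated potassium channel subunit of the Kv1 family, lay between 7.43 and 7.98 in NAc (median 7.74) and between 3.62 and 4.06 in PFC (median 3.76). Its standard error was the smallest of the 4, with differences of 3.67 to 4.17 in the 18 mice and a mean of 3.94 ± 0.04 (adjusted p = 8.18e-44). Grp, the gastrin-releasing peptide, showed the opposite pattern. It lay between 4.03 and 4.92 in NAc (median 4.37) and between 7.84 and 8.77 in PFC (median 8.34), with no overlap, and the difference was -3.92 ± 0.07 (adjusted p = 5.24e-37). The lower region of each of the 4 genes was close to the level of 4.5 used as the limit for expression, where array signals compress differences.

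**Figure D2:**
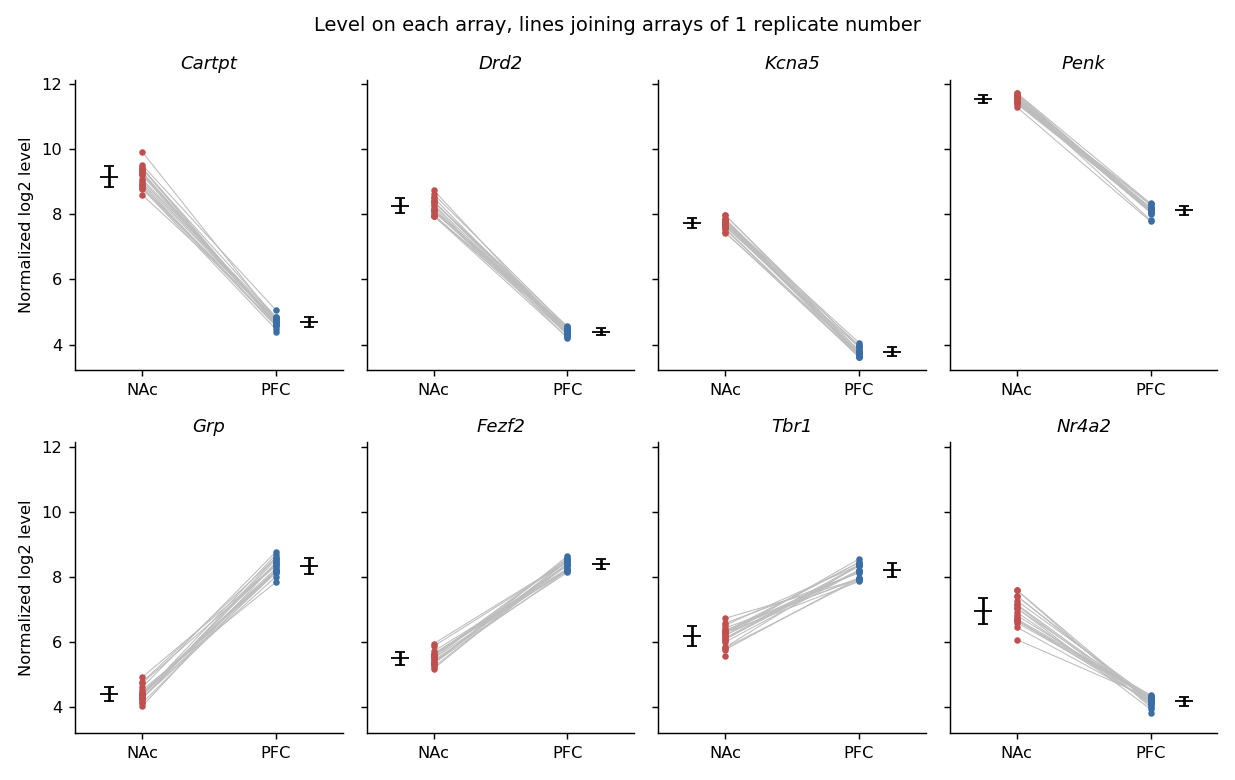
Normalized log2 level of 8 genes on each array (vertical axis) in NAc and PFC; each point is 1 array, lines join arrays with the same replicate number (18 pairs), and the bars beside the points give the mean and SD of 19 arrays. In every panel all points of one region lie above all points of the other, with Cartpt, Drd2, Kcna5, Penk and Nr4a2 higher in NAc and Grp, Fezf2 and Tbr1 higher in PFC.

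Genes known for striatal projection neurons were mostly higher in NAc. This list and the others were chosen with earlier results of these data known, so their counts are descriptions and not tests. Of 29 tested, 23 were higher in NAc and 0 in PFC, against 3.20% of all genes, and the median difference was 1.96 against 0.06 over all genes. Of these genes 28 passed an unadjusted p of 0.05 by limma toward NAc and 1 toward PFC. Over all 18303 probesets, 7215 passed even an adjusted p under 0.01 toward NAc and 6628 toward PFC. Penk, the precursor of the enkephalins and a mark of the D2 receptor cells, was the brightest of those named: 11.29 to 11.72 in NAc (median 11.53) and 7.78 to 8.33 in PFC (median 8.15). The regions were fully apart and the difference was 3.41 ± 0.04 (adjusted p = 2.26e-43). Tac1, which encodes substance P and marks the D1 receptor cells, lay between 11.18 and 11.54 in NAc and between 8.38 and 9.40 in PFC, with medians of 11.39 and 8.74 and a difference of 2.65 ± 0.05 (adjusted p = 3.69e-35). Ppp1r1b encodes DARPP-32, the phosphatase inhibitor through which dopamine receptors act on many targets in these cells. Its level was 10.26 to 10.86 in NAc (median 10.59) and 6.72 to 7.33 in PFC (median 7.06), a difference of 3.53 ± 0.06 (adjusted p = 2.59e-38). Ido1, an enzyme that opens the indole ring of tryptophan on the way to kynurenine, was nearly as far apart as Cartpt. It lay between 7.23 and 8.39 in NAc (median 7.76) and between 3.47 and 4.23 in PFC (median 3.75), and the difference was 3.96 ± 0.08 (adjusted p = 7.73e-36). The D1 receptor gene itself was not matched to a probeset with a single symbol and has no value here.

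Of 34 dopamine and cAMP signalling genes, 7 were higher in NAc and 3 in PFC (10 and 1 in the deposited values), and the median difference was -0.15. Cyclic nucleotide phosphodiesterases, which break down cAMP and cGMP, went both ways. Pde10a, the phosphodiesterase that is most abundant in medium spiny neurons, lay between 9.16 and 9.78 in NAc and between 6.17 and 6.94 in PFC (difference 2.89 ± 0.06, adjusted p = 3.79e-35). Pde1b, a calcium and calmodulin-dependent form, was higher in NAc by 2.23 ± 0.04 (adjusted p = 1.85e-36). Its paralogue Pde1a was higher in PFC, at 8.69 to 9.64 (median 9.33) against 4.79 to 6.79 in NAc (median 6.38), a difference of -2.88 ± 0.11 (adjusted p = 4.43e-25). The other genes of the list called higher in PFC were Prkaca, a catalytic subunit of protein kinase A (-1.05 ± 0.08, adjusted p = 5.50e-16), and Adcy8, a calcium-stimulated adenylyl cyclase (-1.02 ± 0.07, adjusted p = 1.45e-16). Both were just past the minimum difference, and for Adcy8 the arrays of the regions overlapped. Rgs9, which speeds the shut-off of D2 receptor signals in striatum, lay between 9.62 and 10.24 in NAc and between 6.51 and 6.96 in PFC (difference 3.12 ± 0.05, adjusted p = 1.94e-39). Among 15 regulators of G protein signalling, 2 were called in each direction (13.3%), against 4 in NAc and 0 in PFC in the deposited values. Rgs9 and Rgs10 (1.16 ± 0.04) were higher in NAc, and Rgs6 (-1.29 ± 0.05) and Rgs7 (-1.17 ± 0.03) were higher in PFC. Rgs6, Rgs7 and Rgs9 belong to one subfamily, whose members share a domain that binds a G protein beta subunit, and the 3 were not called in one direction.

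Of 30 neuropeptide genes tested, 7 were higher in NAc and 5 in PFC (12 and 2 in the deposited values), with a median difference of 0.11. Besides Cartpt, Penk and Tac1, Nts, the precursor of neurotensin, was much higher in NAc. It varied more between mice than the others, from 6.84 over 7.80 to 8.77 in NAc and from 3.50 over 3.97 to 4.34 in PFC, and the difference of 3.82 ± 0.11 (adjusted p = 7.43e-30) ranged from 3.05 to 5.27 in the 18 mice. In PFC, besides Grp, Vip lay between 9.70 and 10.46 against 7.07 to 8.10 in NAc (difference -2.36 ± 0.07, adjusted p = 3.48e-30). Vip, vasoactive intestinal peptide, marks a class of cortical interneurons. Cck, cholecystokinin, is made by many cortical pyramidal neurons and by some interneurons, and lay between 11.05 and 11.48 in PFC and between 9.49 and 10.22 in NAc (difference -1.41 ± 0.05, adjusted p = 2.31e-27). Adcyap1, the precursor of PACAP, differed by -1.30 ± 0.05 (adjusted p = 1.26e-25).

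Of 24 neuropeptide receptors, 5 were higher in NAc and 3 in PFC (8 and 0 in the deposited values), with a median difference of 0.05. Trhr, the receptor of thyrotropin-releasing hormone, lay between 6.47 and 7.60 in NAc and between 3.88 and 5.28 in PFC (2.50 ± 0.08, adjusted p = 1.46e-27), although its other probeset differed by 0.65 and was not called. Npy2r (1.71 ± 0.08) and Npy1r (-1.14 ± 0.08), both receptors of neuropeptide Y, were called in opposite directions. Nmbr, the neuromedin B receptor, was higher in NAc by 1.51 ± 0.09, with 1 or more arrays of the regions overlapping, and Mchr1, the receptor of melanin-concentrating hormone, by 1.25 ± 0.07. Cckbr, the brain receptor of cholecystokinin, was higher in PFC as its ligand was, at 9.25 to 9.62 against 7.57 to 8.34 in NAc (-1.44 ± 0.05, adjusted p = 1.25e-26). Crhr1, the main receptor of corticotropin-releasing hormone in the brain, lay between 7.50 and 7.85 in PFC and between 6.08 and 6.97 in NAc (-1.23 ± 0.06). Htr2c, a serotonin receptor, was among the 15 greatest differences toward NAc, at 6.33 to 7.70 in NAc and 4.07 to 4.76 in PFC (2.89 ± 0.08, adjusted p = 2.94e-30).

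Genes known for cortical excitatory neurons were mostly, but not all, higher in PFC. Of 30 tested, 16 were higher in PFC and 6 in NAc, and the median difference was -1.04. In the deposited values without normalization 6 were called in PFC and 8 in NAc, and the median was -0.37, or -1.09 relative to the shift over all genes. Camk2a, the alpha subunit of the calcium and calmodulin-dependent kinase abundant at excitatory synapses, ran from 7.83 over 9.11 to 9.99 in PFC and from 4.97 over 5.46 to 6.17 in NAc. The regions were apart but the difference of -3.58 ± 0.13 (adjusted p = 7.94e-27) ranged from -4.73 to -2.28 in the 18 mice, a wide spread. Fezf2, a transcription factor that specifies subcortically projecting neurons of deep layers, lay between 8.14 and 8.64 in PFC (median 8.41) and between 5.18 and 5.95 in NAc (median 5.50), a difference of -2.89 ± 0.06 (adjusted p = 5.32e-36). Neurod6, a bHLH factor of pyramidal neurons, differed by -2.53 ± 0.10 (adjusted p = 1.60e-25), and Dkk3, a secreted protein of the Dickkopf family, by -2.02 ± 0.06 (adjusted p = 4.39e-30).

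The 6 genes of that list that were higher in NAc included Nr4a2, Crym, Pcp4 and Cplx3. Nr4a2 is an orphan nuclear receptor that in cortex marks the deepest layer and the claustrum. Its level ran from 6.08 over 6.92 to 7.60 in NAc and from 3.84 over 4.20 to 4.38 in PFC, with no overlap (2.77 ± 0.09, adjusted p = 1.24e-27). Cplx3, a complexin found in the same deep cortical cells, lay between 6.61 and 7.58 in NAc and between 5.11 and 6.48 in PFC (1.47 ± 0.09, adjusted p = 2.77e-19). Crym, a protein that binds thyroid hormone, and Pcp4, a small protein that binds calmodulin, are also made in striatum. Crym lay between 10.18 and 10.75 in NAc and between 8.47 and 9.36 in PFC (1.68 ± 0.06), and Pcp4 between 12.59 and 12.84 and between 10.79 and 11.55 (1.49 ± 0.05). The remaining 2 were Ccn2 (1.45) and Ndst4 (1.34), both named after their values were seen. Ccn2, a secreted matrix protein, is another gene of the deepest cortical layer, and its difference ranged from 0.38 to 3.21 over the 18 mice. A list of 16 tested genes known for other brain regions, not all of them bordering the NAc, was also compared. Lhx8 and Th, both also on the interneuron list, were higher in NAc (12.5% of the list) and the others were not called. In the deposited values 8 were called in NAc. Lhx8, a LIM factor of basal forebrain cholinergic neurons, ran from 5.15 over 5.68 to 7.25 in NAc, and from 3.09 to 3.57 in PFC (2.47 ± 0.11, adjusted p = 2.48e-23). Th, tyrosine hydroxylase, the first enzyme of dopamine synthesis, ran from 5.82 over 6.18 to 7.32 in NAc and from 4.66 to 5.04 in PFC (1.43 ± 0.10, adjusted p = 2.87e-17). The part of tissue from other regions in these values was not tested.

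Other genes were among the 15 greatest differences on each side. Tnnc1, the slow and cardiac form of troponin C, lay between 8.03 and 8.85 in PFC (median 8.60) and between 4.58 and 5.68 in NAc (median 5.02), a difference of -3.53 ± 0.07 (adjusted p = 7.73e-36). Myl4, a myosin light chain, lay between 6.84 and 8.35 in PFC and between 4.25 and 5.46 in NAc (-2.98 ± 0.10, adjusted p = 3.84e-27), while its other probeset differed by 0.08. Rspo2, a secreted enhancer of Wnt signalling, lay between 8.04 and 8.61 in PFC and between 4.84 and 6.18 in NAc (-2.93 ± 0.07, adjusted p = 1.05e-31). Zbtb16, a zinc finger factor, and Trbv1, a T cell receptor segment, were each read by a probeset of the kind that may share probes with other transcripts (names ending in _x_at). They differed by -3.02 ± 0.09 and -3.45 ± 0.07, and the other probeset of Zbtb16 differed by -0.32. Epop, Cbl, Kif5c, Smoc2, Ogn and Atrx completed the 15 greatest differences toward PFC, between -2.90 and -2.58. On the NAc side Abi3bp, Rarb, Klhl13, Ecel1 and Rem2, between 4.29 and 2.86, were among the 15. Abi3bp, an extracellular matrix protein, ran from 7.84 over 8.43 to 8.72 in NAc and from 3.71 over 4.03 to 5.21 in PFC (4.29 ± 0.09, adjusted p = 6.68e-35), and its other probeset differed by 3.15.

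Of 39 transcription factors that pattern the telencephalon, 17 were higher in NAc and 10 in PFC, so 12 were not called, and the median difference was 0.72. In the deposited values 22 were called in NAc and 4 in PFC. Those higher in NAc included factors of the embryonic ganglionic eminence. Isl1, which in striatum drives the fate of D1 receptor cells, lay between 6.38 and 7.33 in NAc (median 6.81) and between 3.88 and 4.40 in PFC (median 4.19), a difference of 2.62 ± 0.05 (adjusted p = 2.96e-35), and 3.62 by its other probeset. Zfp503 (2.59 ± 0.06), Six3 (2.50 ± 0.06) and Dlx6 (2.42 ± 0.05) were likewise without overlap. Six3 is needed for the D2 receptor cells, and the Dlx factors for GABAergic neurons of the forebrain. Those higher in PFC, besides Fezf2 and Neurod6, included Tbr1 and Satb1. Tbr1, a T-box factor of deep layer pyramidal neurons, lay between 7.86 and 8.55 in PFC (median 8.19) and between 5.58 and 6.73 in NAc (median 6.21), a difference of -2.01 ± 0.08 (adjusted p = 3.12e-25). Its NAc level was above 4.5 on all 19 arrays. Satb1, a chromatin organiser, was read by 3 probesets that differed by -1.79 to -1.71.

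Of 19 retinoid signalling genes, 3 were higher in NAc, 2 in PFC and 14 were not called, among them other receptors and enzymes of the pathway. In the deposited values 10 were called in NAc and 1 in PFC. Rarb, a retinoic acid receptor, lay between 8.63 and 9.24 in NAc (median 8.96) and between 5.63 and 6.10 in PFC (median 5.85), a difference of 3.11 ± 0.05 (adjusted p = 2.59e-38). Rxrg, a retinoid X receptor with which it can pair, lay between 8.16 and 8.70 in NAc and between 5.20 and 5.96 in PFC (2.81 ± 0.05, adjusted p = 8.57e-36). Crabp1, which binds retinoic acid in the cytoplasm, was low in both regions, with medians of 4.86 and 3.61 (1.24 ± 0.07). Aldh1a2, an enzyme that makes retinoic acid, lay between 5.29 and 6.72 in PFC and between 3.32 and 4.17 in NAc (-2.26 ± 0.09, adjusted p = 4.20e-25), and Rdh11, a retinol dehydrogenase, differed by -1.03 ± 0.09. Aldh1a2 is also known from the meninges, whose genes are described with the cell types.

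**Figure D3:**
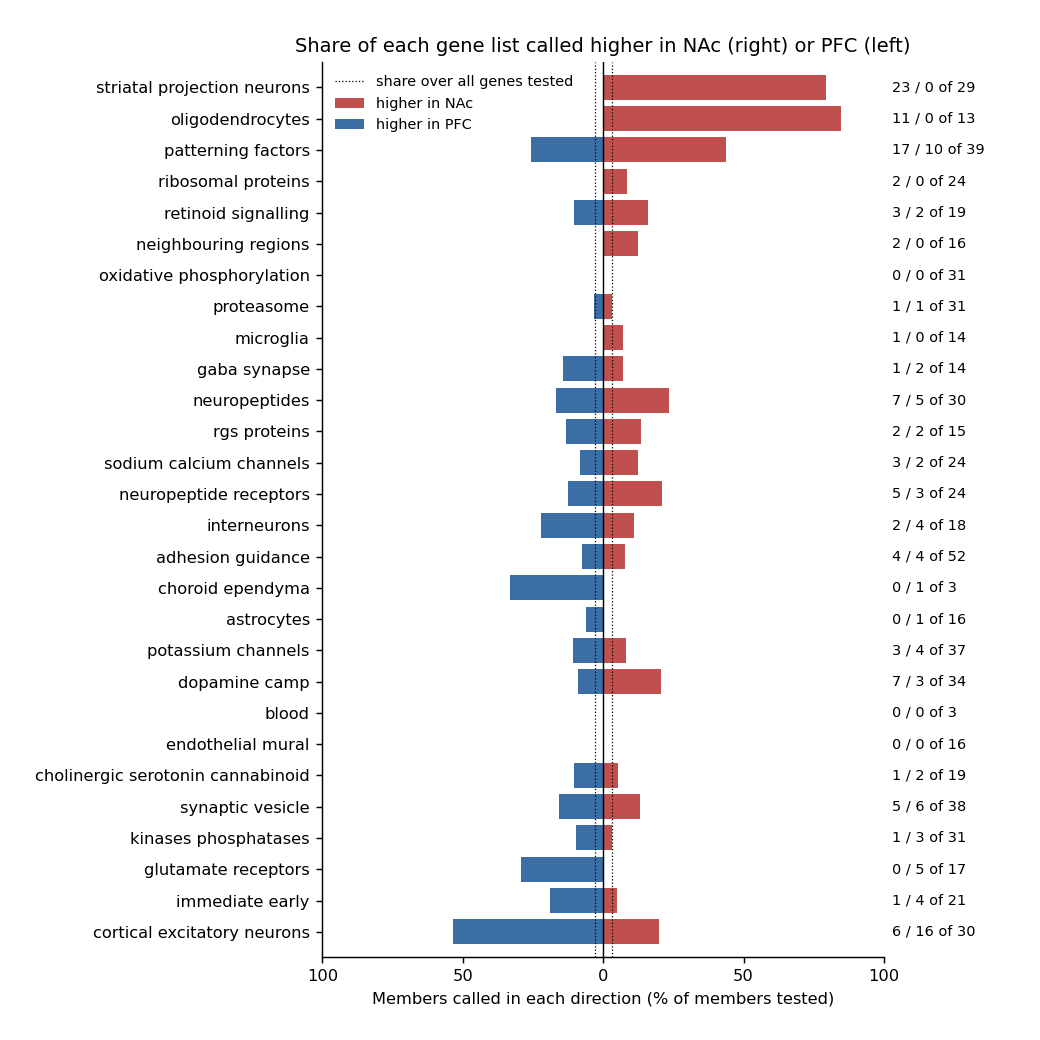
Share of the tested members of 28 gene lists called higher in NAc (right, red) or higher in PFC (left, blue), in percent (horizontal axis), ordered by the median difference of the list; the numbers give members higher in NAc, higher in PFC and tested, and dotted lines mark the shares over all genes, 3.20% and 3.04%. Striatal projection neuron and oligodendrocyte genes lie almost wholly to the right, and cortical excitatory neuron genes mostly to the left.

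Of 17 glutamate receptor and scaffold genes, 0 were higher in NAc and 5 in PFC, with a median difference of -0.47, and 4 passed an unadjusted p of 0.05 by limma toward NAc. This direction turned in the deposited values without normalization, where 2 were called in NAc and 0 in PFC and the median was 0.13, or -0.59 relative to the shift of 0.72 over all genes. Grm8, a presynaptic metabotropic receptor, lay between 6.17 and 6.62 in PFC and between 4.55 and 5.42 in NAc (-1.46 ± 0.07, adjusted p = 6.81e-23). Grin2a and Grin2b, the NMDA receptor subunits that set its kinetics, differed by -1.28 ± 0.07 and -1.05 ± 0.07. Both were low: Grin2a had a mean of 4.04 in NAc and 5.32 in PFC, and Grin2b of 4.78 and 5.83. The other probeset of Grin2b differed by 0.03, and of the 3 probesets of Dlg4, the scaffold PSD-95, those that differed by -1.66 and -1.11 were called and the one at 0.04 was not. Of 14 genes of the GABA synapse, Slc32a1, the vesicular transporter of GABA, was higher in NAc, at 8.97 to 9.47 against 7.40 to 8.10 (1.57 ± 0.05, adjusted p = 3.35e-27). The GABA-A receptor subunits Gabrb2 (-1.92 ± 0.10) and Gabra3 (-1.33 ± 0.10) were higher in PFC, the latter with overlapping arrays, and in the deposited values 5 of the list were called in NAc and 1 in PFC. The synthetic enzymes Gad1 (0.59 ± 0.04) and Gad2 (0.42 ± 0.08) did not reach the minimum difference.

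Of 37 potassium channel genes, 3 were higher in NAc and 4 in PFC, with a median difference of -0.15. In the deposited values 11 were called in NAc and 0 in PFC, beside 4437 and 179 of all 18303 probesets. After Kcna5 the differences toward NAc were those of Kcnab1, a beta subunit of Kv1 channels (1.30 ± 0.04), and Kcna4 (1.04 ± 0.05). In PFC, Kcnj9, a G protein-gated inward rectifier subunit, lay between 7.29 and 7.98 against 5.58 to 6.36 in NAc (-1.61 ± 0.06, adjusted p = 4.67e-25). It was followed by the small-conductance channel Kcnn2 (-1.14 ± 0.05), the fast delayed rectifier Kcnc1 (-1.10 ± 0.08) and Kcna6 (-1.02 ± 0.06). The NAc mean of Kcna6 was 4.46, under the limit of 4.5. Of 24 sodium and calcium channel genes, 3 were higher in NAc and 2 in PFC (9 and 0 in the deposited values). The T-type channel Cacna1h (1.11 ± 0.05) and the auxiliary subunits Cacng5 (1.46 ± 0.09) and Cacna2d3 (1.02 ± 0.04) were higher in NAc. The P/Q-type channel Cacna1a (-1.22 ± 0.07) and the auxiliary subunit Cacng3 (-1.37 ± 0.06) were higher in PFC. The other probeset of Cacng5 differed by -0.35.

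Of 38 vesicle and presynaptic genes, 5 were higher in NAc and 6 in PFC, with a median difference of -0.25, and in the deposited values without normalization 11 were called in NAc and 1 in PFC. Doc2b, a calcium sensor of spontaneous release, lay between 8.19 and 8.87 in NAc and between 5.52 and 6.21 in PFC (2.73 ± 0.06, adjusted p = 4.38e-35), and Syt6, a synaptotagmin, differed by 1.42 ± 0.06. Rph3a, an effector of Rab3, was higher in PFC, at 7.57 to 8.63 against 5.44 to 6.45 (-2.07 ± 0.09, adjusted p = 8.94e-23). Stx1a, the syntaxin of the release machinery (-1.35 ± 0.06), Dnm1, the dynamin of endocytosis (-1.33 ± 0.04), and Syp, synaptophysin (-1.26 ± 0.05), were higher in PFC too. Of 31 kinase, phosphatase and phospholipase genes, 1 was higher in NAc (3.23%), near the share over all genes, and 3 in PFC (9.68%). That toward NAc was Prkch, an isoform of protein kinase C (2.18 ± 0.06). Camk2a, Plcb4 (-2.01 ± 0.06) and Dusp6 (-1.35 ± 0.08) were higher in PFC. In the deposited values 6 were called in NAc and 2 in PFC. Among 52 adhesion and guidance genes 4 were called in each direction (7.69%), and in the deposited values 17 in NAc and 1 in PFC. Called with joint normalization were Ntn1, netrin-1 (1.90 ± 0.07), its receptor Dcc (1.23 ± 0.09), Efnb3 (1.51 ± 0.06) and Cdh13 (1.16 ± 0.05), all higher in NAc. Ephb6 (-2.33 ± 0.07), Cdh8 (-1.65 ± 0.07), Epha4 (-1.16 ± 0.07) and Cntn4 (-1.06 ± 0.06) were higher in PFC. Of 19 cholinergic, serotonin and cannabinoid genes 1, Htr2c, was higher in NAc (5.26%) and 2 were higher in PFC (10.5%). These 2 were Cnr1, the CB1 cannabinoid receptor (-1.89 ± 0.07), and Chrm3, a muscarinic receptor (-1.53 ± 0.09). In the deposited values 3 were called in NAc and 1 in PFC.

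Of 21 immediate early genes, which neurons induce with activity, 4 were higher in PFC and 1, Nr4a2, in NAc, with a median difference of -0.49. In the deposited values 2 were called in PFC and 3 in NAc, with a median of 0.18, or -0.54 relative to the shift. Bdnf, the neurotrophin, lay between 7.22 and 8.08 in PFC and between 4.85 and 5.99 in NAc (-2.03 ± 0.08, adjusted p = 2.21e-24). Ptgs2, the inducible cyclooxygenase, lay between 5.45 and 6.28 and between 3.49 and 4.21 (-2.03 ± 0.06), and Nptx2, a secreted pentraxin of synapses, differed by -1.45 ± 0.06. Fos itself was close to the minimum difference and the regions overlapped, at 5.97 to 8.31 in PFC and 5.03 to 7.24 in NAc. Its difference of -1.01 ± 0.15 (adjusted p = 5.04e-08) ranged from -2.55 to -0.19 in the 18 mice.

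Genes of other cell types differed between the regions too. Oligodendrocyte genes, whose products build myelin, were higher in NAc for 11 of 13 tested and in PFC for 0, with a median difference of 1.61, and all 13 passed an unadjusted p of 0.05 by limma toward NAc. The mean level of the 13 genes lay between 9.34 and 9.63 on the NAc arrays and between 7.45 and 8.59 on the PFC arrays, with PFC replicate 8 the highest. Mobp, a myelin protein, ran from 11.16 over 11.40 to 11.68 in NAc and from 8.23 over 8.86 to 10.20 in PFC (2.48 ± 0.12, adjusted p = 3.99e-22). The regions did not overlap, but the PFC arrays were far more spread, with an SD of 0.55 against 0.13. Mog (2.29 ± 0.10), Mal (2.06 ± 0.09) and Ugt8a (1.99 ± 0.09), also genes of myelin, showed differences of similar size by their brightest probesets. The other probeset of Mal differed by 1.08, and that of Ugt8a by 0.16 and was not called. Mbp, named after its values were seen, was not called by its brightest probeset, at 12.96 to 13.46 in NAc and 11.76 to 12.91 in PFC (0.89 ± 0.08), near the top of the array's range. Its 8 probesets ranged from -0.47 to 2.49. The part of oligodendrocyte RNA in the other calls was not tested.

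Genes of the leptomeninges, the membranes on the brain surface, were higher in PFC. This list was drawn up after their values were seen and is given by its counts: of 28 tested 0 were higher in NAc (1 passed an unadjusted p of 0.05 by limma) and 16 in PFC, with a median difference of -1.24. In the deposited values 7 were higher in PFC and 0 in NAc. Their mean level lay between 5.46 and 6.07 on the NAc arrays and between 5.76 and 7.57 on the PFC arrays, lowest on PFC replicate 3 and highest on PFC replicate 13. PFC replicate 3 was thus the only PFC array inside the range of NAc for this list, and without it 19 members were higher in PFC. Ogn, a proteoglycan of fibrous tissue and one of the 15 greatest differences toward PFC, ran from 5.21 over 6.66 to 7.85 in PFC and from 3.80 over 4.06 to 4.66 in NAc (-2.59 ± 0.12, adjusted p = 5.15e-22). Igf2, which meninges and choroid plexus make, overlapped between the regions, at 6.61 to 9.03 in PFC and 6.85 to 7.48 in NAc (-1.03 ± 0.12, adjusted p = 3.68e-10). Its difference ranged from -1.75 to 0.37 in the 18 mice. Aldh1a2 is a member of this list too. The part of meningeal RNA in the genes higher in PFC was not tested.

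**Figure D4:**
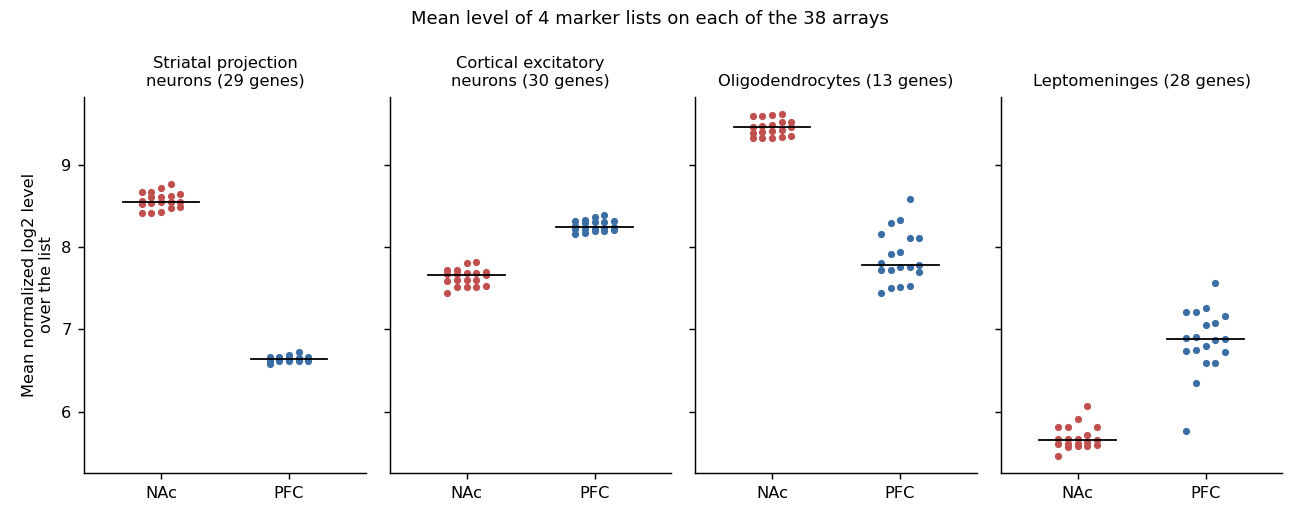
Mean normalized log2 level (vertical axis) over the genes of 4 marker lists on each of the 19 NAc and 19 PFC arrays; each point is 1 array and the lines give the median of the region. Striatal, cortical and oligodendrocyte lists separate the regions without overlap, and 1 PFC array (replicate 3) lies within the NAc range for the leptomeninges list.

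Of 16 astrocyte genes 1 was called, Gjb6, a gap junction connexin that was higher in PFC (-1.29 ± 0.08, 6.25% of the list), and the median difference was -0.13. Of 14 microglia genes 1 was called, Cd68, a lysosomal protein of phagocytes that was higher in NAc (1.09 ± 0.06, 7.14% of the list). At an unadjusted p of 0.05 by limma 8 of the microglia genes passed toward NAc and 4 toward PFC. Such counts stand beside 7215 and 6628 of 18303 probesets that passed an adjusted p under 0.01 in these directions. Cx3cr1, a microglia gene named after its values were seen, was not called by its brightest probeset (-0.64 ± 0.06). Its other probeset was called higher in PFC (-1.31 ± 0.10). In the deposited values 2 astrocyte and 4 microglia genes were called in NAc and 0 in PFC. Of 16 endothelial and mural genes 0 were called, and at an unadjusted p of 0.05 by limma 4 passed toward NAc and 9 toward PFC. Of 3 blood genes 0 were called and 0 and 1 passed in this way, and of 3 choroid plexus and ependyma genes only Igf2 was called. Of 18 interneuron genes 4 were higher in PFC (22.2%) and 2, Lhx8 and Th, in NAc (11.1%), and in the deposited values 2 were called in PFC and 4 in NAc. Pvalb, parvalbumin, the mark of fast-spiking basket cells, lay between 8.47 and 9.41 in PFC and between 6.94 and 7.66 in NAc (-1.65 ± 0.07, adjusted p = 4.28e-24). Kit, a receptor tyrosine kinase, differed by -1.22 ± 0.08. Sst and Npy, peptides of another interneuron class, were at nearly equal levels, with differences of 0.23 ± 0.04 and 0.12 ± 0.04.

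Genes of general cell function are set beside the shares of all genes called, 3.20% toward NAc and 3.04% toward PFC. Of 31 genes of oxidative phosphorylation 0 were called, with a median difference of 0.20. Toward NAc 24 passed an unadjusted p of 0.05 by limma, beside 7215 of 18303 probesets that passed an adjusted p under 0.01. In the deposited values 13 were called, beside 4437 of 18303 probesets called toward NAc. Of 31 proteasome genes Psmb3 was higher in NAc (1.31 ± 0.06, and 0.10 by its other probeset) and Psma4 higher in PFC, at 10.37 to 10.71 against 9.12 to 9.77, and of 24 ribosomal protein genes Rpl37 (1.04 ± 0.07) and Rps6 (1.02 ± 0.07) were higher in NAc. These shares were 3.23% in each direction for the proteasome list and 8.33% toward NAc for the ribosomal list. Psma4, Rpl37 and Rps6 lay close to the minimum difference. In the deposited values 9 proteasome and 18 ribosomal protein genes were called in NAc and 0 in PFC. Over all 18303 probesets 4437 and 179 were called in these directions.

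Promoter sequences were set beside the greatest differences because several of the peptides above are textbook targets of cAMP signalling through the CRE motif, TGACGTCA, which reads the same on both strands. RefSeq promoter windows of 300 bases, from 250 before to 50 after a transcript's start (GRCm38.p6), were matched for 255 of the genes higher in NAc, 253 of those higher in PFC and 8500 of all genes tested. The motif was found in 2.39% of the windows of genes higher in NAc, 2.47% of those of genes higher in PFC and 2.76% of all windows, so its share in the called sets was near that over all windows. Its first 5 bases, TGACG, searched on both strands and contained in each CRE, was found in 16.2%, 24.2% and 29.0%. The base composition of the windows was not compared. Among peptide genes higher in NAc, the windows of Nts, Tac1 and Pdyn held no CRE, and Penk had no window. Of the 15 greatest differences on each side, 11 genes higher in NAc and 8 higher in PFC had a window, and 1 on each side held the CRE. These were Cartpt and Kif5c, whose 250 bases before the start are shown with the CRE in capitals, 5′ to 3′ on the strand of the gene; a match is a description of these letters and not of binding.
Cartpt, chr13:99900684-99900933, minus strand: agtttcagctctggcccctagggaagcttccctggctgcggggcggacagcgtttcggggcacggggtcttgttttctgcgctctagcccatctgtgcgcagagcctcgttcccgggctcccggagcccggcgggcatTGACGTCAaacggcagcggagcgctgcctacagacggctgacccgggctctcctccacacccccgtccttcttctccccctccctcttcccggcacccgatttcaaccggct
Kif5c, chr2:49619036-49619285, plus strand: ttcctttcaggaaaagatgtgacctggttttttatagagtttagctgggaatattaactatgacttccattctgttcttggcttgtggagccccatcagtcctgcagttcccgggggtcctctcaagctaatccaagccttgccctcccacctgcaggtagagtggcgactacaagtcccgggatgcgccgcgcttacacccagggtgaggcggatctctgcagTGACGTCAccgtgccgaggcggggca
Cartpt, whose CRE begins at position -112 from the start, is the gene with the greatest difference toward NAc described above. Kif5c, a neuronal kinesin that carries cargo along axons, has its CRE at position -26 and was higher in PFC, at 8.76 to 9.75 against 5.28 to 7.60 in NAc (-2.80 ± 0.13, adjusted p = 4.45e-22).

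Probesets of the same gene often gave different sizes. Of the called genes with more than 1 tested probeset, all probesets were called in the same direction for 44 of 134 genes higher in NAc (32.8%) and for 43 of 133 higher in PFC (32.3%). Of the 43 named genes with 2 or more tested probesets, 21 did not have all probesets called alike. A probeset not called was seen for Plcb4 (-0.48), Syp (-0.37), Kcnj9 (-0.12), Slc32a1 (0.57), Ntn1 (0.27) and Cdh13 (0.23), among others. Only 2 genes, Ap2a2 (-1.45 and 1.10) and Atf4 (-1.02 and 1.93), had probesets called in opposite directions. Both were named after their values were seen.

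**Figure D5:**
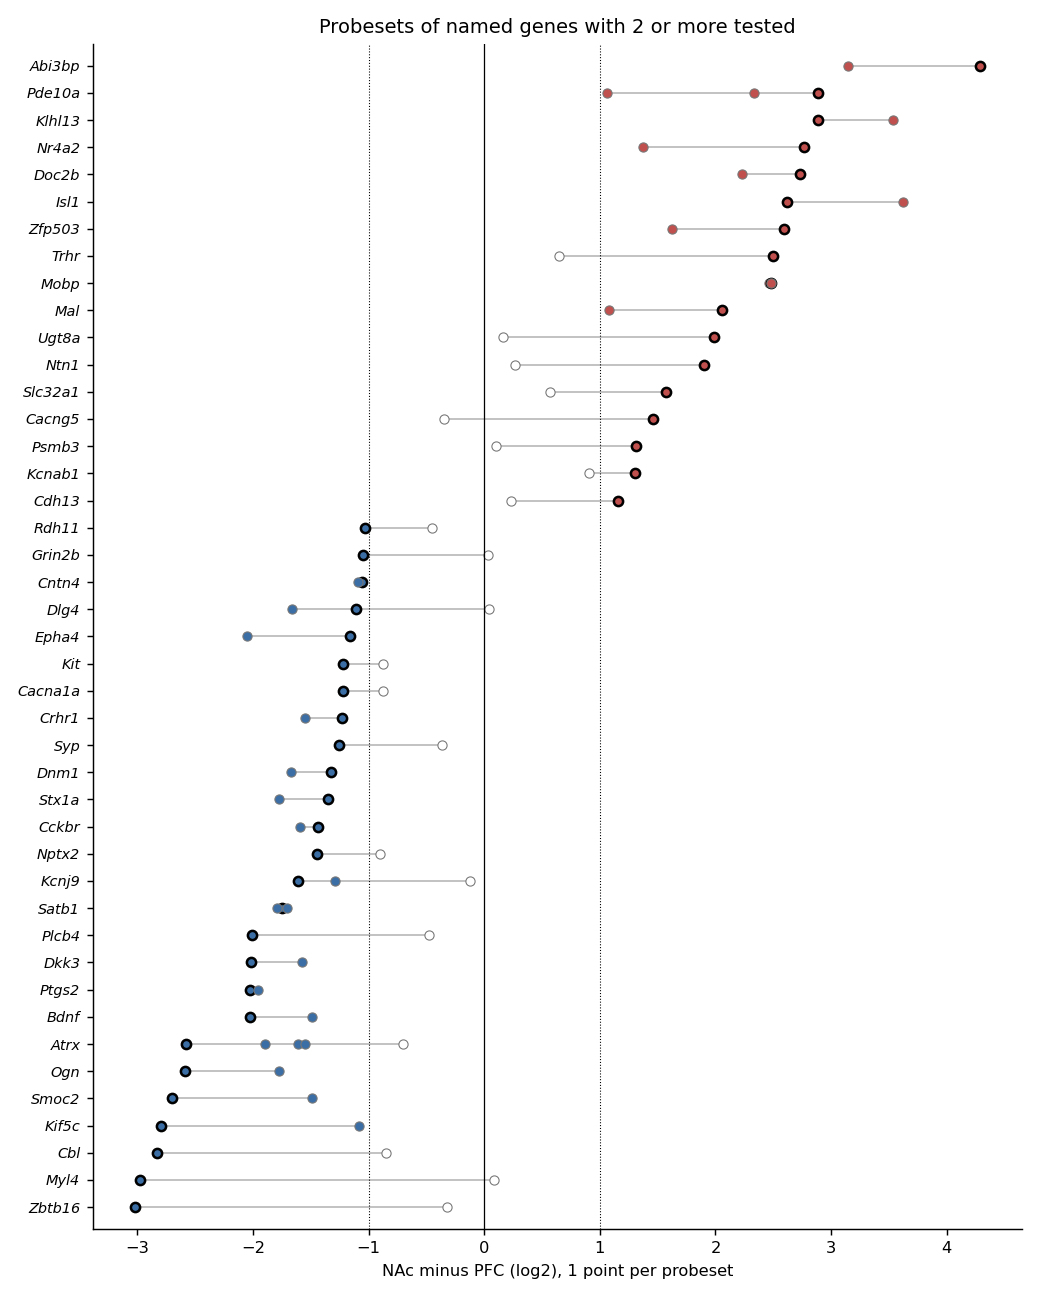
Difference NAc minus PFC (log2, horizontal axis) of every tested probeset of the 43 named genes with 2 or more; red points were called higher in NAc, blue points higher in PFC and white points not called, the black outline marks the brightest probeset, and dotted lines mark the minimum difference of 1. For Abi3bp, Isl1, Bdnf and Ptgs2 all points lie on the called side, while for Zbtb16, Myl4 and Cacng5 1 probeset lies near 0 or on its other side.

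Malat1, a nuclear long non-coding RNA named after its values were seen, was the gene with the greatest spread among those called. It ran from 8.27 over 9.97 to 11.31 in PFC and from 6.33 over 7.55 to 8.76 in NAc, so the regions overlapped. The difference of -2.44 ± 0.23 (adjusted p = 8.32e-13) ranged from -4.35 to -0.47 over the 18 mice, an SD of 1.07 against a median of 0.26 over called genes, and its 5 probesets ranged from -3.76 to -0.02. Over the arrays within a region, 79 of 10578 genes (0.747%) followed Malat1 with r of at least 0.5 in both regions, Malat1 itself included. Among the genes higher in PFC 10 of 322 did (3.11%), and among those higher in NAc 3 of 338 (0.888%). Atrx, a chromatin remodeller among the 15 greatest differences toward PFC, was one of them, with r of 0.764 in NAc and 0.846 in PFC over 19 arrays each. Its level ran from 6.34 over 7.70 to 8.16 in PFC and from 4.19 over 4.92 to 5.69 in NAc, and its 5 probesets differed by -2.58 to -0.70. Without all probesets that followed Malat1 in this way, 1294 were called.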

How the data were processed

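RNA from NAc and PFC of individual mice was measured on Affymetrix mouse oligonucleotide arrays, 1 per mouse and region. The authors deposited RMA signals on the log2 scale for 22626 probesets, made with GCOS and RMA by the submitters' processing notes; their background correction and summary compress low signals. Deposited medians per array were 6.26 to 6.32 for NAc and 5.66 to 5.70 for PFC, so the 38 arrays were quantile normalized together. A probeset was tested when it reached 4.5 on at least 1 array, the limit of the study's methods, which left 18303 and removed 4323.

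Regions were compared with limma 3.58.1 (R 4.3.3, statmod 1.5.0) with the replicate number as a random block (consensus correlation 0.0646) and Benjamini-Hochberg adjustment. The labels do not say that a number is a mouse. Deviations of the same number from the region means correlated at 0.0578 on average (4 of 18 over 0.1), other pairs at -0.00357. The labels give no batch, and region and any difference in handling between regions cannot be told apart.

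A single symbol was listed for 20380 probesets, more than 1 for 691 and no symbol for 1555; single symbols, updated to GRCm38.p6 names, gave 10578 genes. The arrays' number, 19 per region, limits the precision. Named genes are the 15 greatest called differences in each direction, the 4 markers, and up to 4 called members per list and direction; others are said to be chosen after their values were seen or are given as not called. The members and lists were chosen with earlier results of these data known. In simulated data with 18303 probesets 0 of 50 changed by 0.5 were called, which is under the minimum difference, and all 50 changed by 1.5 and all 50 by 2. No change close to the minimum difference was simulated, so these outcomes do not bear on genes near it. Alternatives covered the normalization, filter, block, test, arrays and probesets.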

Additional observations from a re-analysis of the deposited data

How the results depend on the processing

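Direction held for all 119 named genes in each alternative in which their probeset was tested. Without the joint normalization, on the deposited values, 4616 probesets were called (4437 higher in NAc and 179 in PFC), 755 of the 1333 among them, and 36 named genes lost the call. Testing against the minimum difference itself (limma's treat) left 766 (333 and 433), and 28 named genes lost the call. With 1 probeset per gene 660 were called (338 and 322), and with only probesets whose names end in a plain _at 883 (348 higher in NAc); both test fewer probesets. Centring arrays on their medians gave 1325 calls, 48.4% of them higher in NAc against 43.2%. Without the replicate block 1335 were called and with replicate number as a fixed block over 18 pairs 1311, in which 2 named genes lost the call. The other counts of all called probesets lay between 1069 (a mean of at least 6 in a region) and 1337 (without PFC replicate 20). Of 153 called members of the lists, 130 remained where every tested probeset had to be called alike. Members with 1 tested probeset meet this rule by definition. Among all called genes with more than 1, all probesets were called alike for 32.8% of those higher in NAc and 32.3% of those higher in PFC. Adcy8, Fos, Kcna6, Psma4, Rdh11 and Rpl37, near the minimum difference, lost the call most often. Low signals limit the comparison: 74 of 338 genes higher in NAc had a PFC mean under 4.5 and 47 of 322 higher in PFC an NAc mean under 4.5, where sizes are compressed.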
